A study of Mus musculus with 8 samples.

Results

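HOX genes encode homeodomain transcription factors that give cells a positional identity along the body axis. They lie in clusters in which gene order follows the order of expression from head to tail, so that low paralogue numbers mark anterior and high numbers posterior domains. Fibroblasts are known to keep a HOX pattern of their site of origin in culture. The HOX probe sets studied here were those whose single gene symbol in the platform annotation begins with Hoxa, Hoxb, Hoxc or Hoxd followed by a digit. There were 40 of them among the 12488 probe sets of the array, for 32 of the 8251 genes that the array names by a single symbol. They covered 31 of the 39 coding HOX genes in RefSeq together with Hoxa11os, a noncoding antisense RNA of the HoxA cluster with 2 probe sets. The choice of members used symbols only and no measured value. Of the 40 probe sets, 7 were at a log2 value of 5 or more on at least 2 arrays, and these represented 6 genes, Hoxa2, Hoxa3, Hoxa5, Hoxa10, Hoxc9 and Hoxd8.

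Total RNA of 2 mouse embryonic fibroblast (MEF) lines was hybridised to Affymetrix arrays, 1 line STAT3+/+ and 1 line STAT3-/-. Both lines were spontaneously immortalised and grown in serum-containing medium, and each was measured untreated and after 30 minutes with 20 ng/ml oncostatin M (OSM), an interleukin-6-type cytokine whose gp130 receptor activates STAT3. Each of the 4 groups has 2 arrays, numbered 02 and 03 in the sample titles, and the number is called the title number here. The treatment was taken from the titles, since the growth text mentions OSM for the untreated samples too. With 1 line for each genotype, the absence of STAT3 cannot be told apart from any other difference between the lines, and the sources used here do not give the region of the embryo that the cells came from. The study's design names 3 comparisons, namely the lines against each other and OSM against no treatment within each line. The number of arrays limits the precision of each value. Separate cultures are not stated for the arrays of a group, so each p-value measures array-to-array spread only, and that spread may be technical.

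Array medians lay between 5.27 and 5.66 on the log2 scale, and 51.1 to 52.9% of values were at 5 or more. Of the 16 fibroblast markers on the array, 14 were detected at the level used for the HOX genes, and Thy1 and Vim were not. Of the markers of other cell types, the detected ones were 2 of 7 for epithelium (Krt8 and Krt18), 2 of 6 for leukocytes (Cd14 and Csf1r), 3 of 6 for endothelium (Pecam1, Kdr and Eng), 2 of 6 for neural cells (Tubb3 and Mbp), 2 of 5 for muscle (Myog and Actc1) and 0 of 3 for cartilage and bone. Some were bright, with medians over the 8 arrays of 10.33 for Cd14, 9.08 for an Mbp probe set and 8.04 for Myog. Under the level were, among others, Cdh1, Epcam, Ptprc, Cdh5, Sox2 and Myod1. Stat3 was lower on every STAT3-/- array than on every STAT3+/+ array, with probe set 99099_at at 10.11 to 11.94 in STAT3+/+ cells and 7.81 to 9.17 in STAT3-/- cells. A second Stat3 probe set, 99100_at, read 9.80 to 12.57 in STAT3+/+ cells and 2.76 to 2.94 on 3 STAT3-/- arrays, and 7.30 on the STAT3-/- OSM array of title number 3. The sources used here do not say whether either probe set lies in the deleted part. HOX and list gene calls made with the title number as a block are given below also with each array left out in turn, that array included.

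The promoters of Hoxa2, Hoxa3, Hoxa5 and Hoxd8 are shown because these were the genes detected on all 8 arrays, and Hoxa2 and Hoxd8 had the largest differences described below. Each sequence runs 5′ to 3′ over 250 bases before and 50 after the RefSeq transcription start in build GRCm38.p6. Capitals mark matches, on either strand, to 1 of 5 motifs: the STAT motif TTCNNNGAA, the AP-1 motif TGANTCA, the HOX-PBX motif TGATNNAT, the MEIS motif TGACAG and the TATA box TATAAA. The Hoxa2 window is at chr6:52164782-52165081 on the minus strand, that of Hoxa3 at chr6:52213018-52213317 on the minus strand, that of Hoxa5 at chr6:52204538-52204837 on the minus strand, and that of Hoxd8 at chr2:74704365-74704664 on the plus strand.
Hoxa2 promoter: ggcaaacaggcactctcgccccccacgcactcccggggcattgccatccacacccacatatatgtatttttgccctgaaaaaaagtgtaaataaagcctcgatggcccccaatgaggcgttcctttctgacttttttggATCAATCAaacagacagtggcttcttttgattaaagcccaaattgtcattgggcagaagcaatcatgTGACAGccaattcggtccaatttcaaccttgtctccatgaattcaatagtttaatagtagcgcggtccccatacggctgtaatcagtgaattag
Hoxa3 promoter: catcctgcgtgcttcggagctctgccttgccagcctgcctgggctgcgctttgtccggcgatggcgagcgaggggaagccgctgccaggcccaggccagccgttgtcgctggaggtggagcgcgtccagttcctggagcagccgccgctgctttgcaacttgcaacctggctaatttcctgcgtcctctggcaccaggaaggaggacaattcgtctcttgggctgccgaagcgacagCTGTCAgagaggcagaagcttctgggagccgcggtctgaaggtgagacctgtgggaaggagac
Hoxa5 promoter: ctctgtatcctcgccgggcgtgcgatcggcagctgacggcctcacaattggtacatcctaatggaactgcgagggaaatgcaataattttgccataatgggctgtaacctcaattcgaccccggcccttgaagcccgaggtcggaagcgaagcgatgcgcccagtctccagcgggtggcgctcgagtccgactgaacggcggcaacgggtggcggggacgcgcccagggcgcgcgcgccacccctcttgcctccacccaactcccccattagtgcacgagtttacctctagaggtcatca
Hoxd8 promoter: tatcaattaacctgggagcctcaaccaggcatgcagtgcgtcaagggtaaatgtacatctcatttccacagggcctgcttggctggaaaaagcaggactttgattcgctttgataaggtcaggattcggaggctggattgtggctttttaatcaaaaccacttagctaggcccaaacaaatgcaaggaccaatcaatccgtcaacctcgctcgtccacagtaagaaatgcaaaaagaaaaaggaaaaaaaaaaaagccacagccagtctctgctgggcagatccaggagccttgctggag
In the Hoxa2 window a HOX-PBX match, ATCAATCA on this strand, began at base -111 from the start, and a MEIS match, TGACAG, began at base -44. The Hoxa3 window held 1 MEIS match, CTGTCA, at base -13. The letters of the 5 motifs were not found in the Hoxa5 and Hoxd8 windows. Over the 32544 promoter windows of the same length in the RefSeq table, 8.79% held the HOX-PBX motif, 19.1% MEIS, 8.33% STAT, 7.79% AP-1 and 13.6% the TATA box. The motifs can overlap only in part, and a match describes letters, not a bound site. The windows differed in base composition, since Hoxa5 held 29 CG dinucleotides at 61.7% GC and Hoxa3 20 at 64.0%, while Hoxa2 held 9 at 45.7% and Hoxd8 6 at 46.7%. The median over all windows was 7 CG dinucleotides and 53% GC. Promoter entries were matched for 5 of the 6 detected genes.

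Detection was uneven over the clusters. In the HoxA cluster on chromosome 6, 4 of the 10 coding genes with a probe set were detected, namely Hoxa2, Hoxa3, Hoxa5 and Hoxa10. No HoxB gene of 9 was detected, 1 HoxC gene of 5 (Hoxc9) and 1 HoxD gene of 7 (Hoxd8, by 2 probe sets). Over all probe sets on the array other than controls, 6756 of 12422 passed the same level. By paralogue number, the detected genes were of groups 2, 3, 5, 8, 9 and 10, and no gene of groups 1, 4, 6, 7, 11, 12 or 13 was detected. Detected and undetected genes alternated along HoxA: Hoxa4, which lies between Hoxa3 and Hoxa5, had 4 probe sets that all stayed at 3.12 or less, and Hoxa6, Hoxa7 and Hoxa9, which lie between Hoxa5 and Hoxa10, stayed at 3.39 or less. Coding HOX genes without a member probe set were not analysed here.

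**Figure D1:**
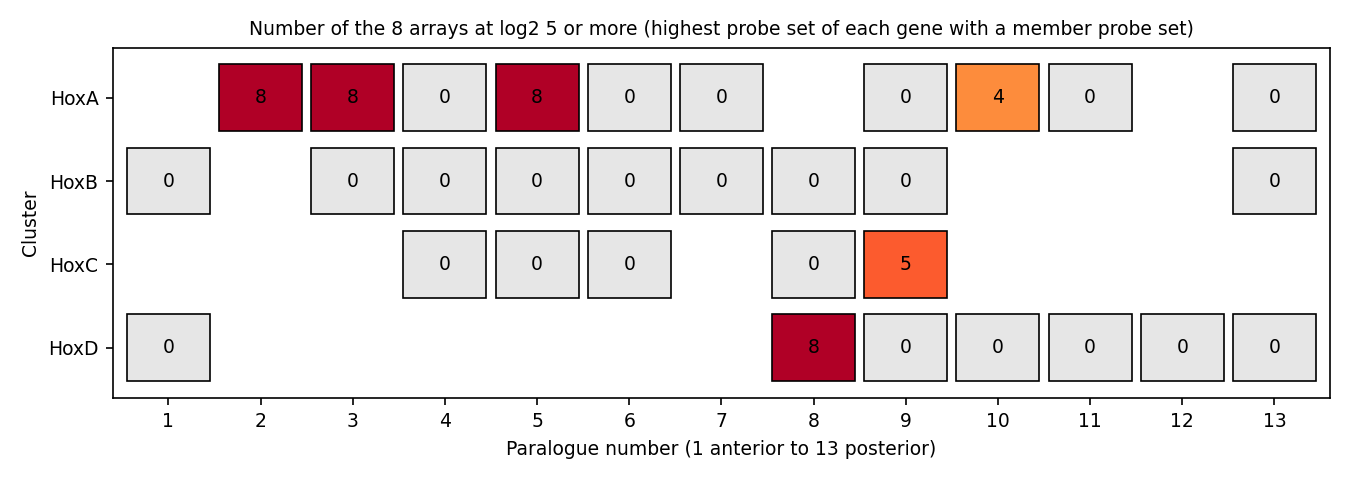
Coding HOX genes with a member probe set, by cluster (rows) and paralogue number (columns), with the number of arrays of 8 at log2 5 or more for each gene's highest probe set. Detected genes are 4 in HoxA, 1 in HoxC and 1 in HoxD, and none in HoxB.

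The other 33 probe sets had no array at 5 or more. Their values ran from -0.85 to 3.39 in HoxA (Hoxa4, Hoxa6, Hoxa7, Hoxa9, Hoxa11, Hoxa11os and Hoxa13), from -0.26 to 4.91 in HoxB (Hoxb1, Hoxb3 to Hoxb9 and Hoxb13), from 1.54 to 4.05 in HoxC (Hoxc4, Hoxc5, Hoxc6 and Hoxc8) and from 1.32 to 4.23 in HoxD (Hoxd1 and Hoxd9 to Hoxd13). In 22 of the 33 the highest array was under 3. Nearest below the level were Hoxb3 at 4.23 to 4.91, the Hoxd1 probe set 98820_g_at at 3.24 to 4.23, and Hoxc4 at 3.19 to 4.05. Nearest above it were Hoxa10 at 4.13 to 5.32 and Hoxc9 at 4.54 to 5.84. A value under 5 does not show that a transcript was absent, since probe sets differ in how well they bind and levels of different genes were not compared. A further 3 probe sets whose annotation lists several symbols including a HOX gene are outside the definition and read 1.24 to 4.57.

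Among the detected genes, Hoxa2 patterns the hindbrain and the neural crest of the second branchial arch. Its probe set 102643_at read 9.14 (number 02) and 7.35 (number 03) in untreated STAT3+/+ cells, and 7.0 and 5.42 with OSM. In STAT3-/- cells it read 8.84 and 7.25 untreated, and 6.70 and 5.55 with OSM. All 4 OSM arrays (5.42 to 7.0) lay below all 4 untreated arrays (7.25 to 9.14), and within each group number 03 was the lower array. Such a complete separation was seen downward for 1.3% and upward for 1.76% of all probe sets tested.

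Hoxa3 acts in the pharyngeal region, in thymus and parathyroid formation. It read 5.91 and 6.63 in untreated and 5.78 and 6.49 in OSM-treated STAT3+/+ cells (number 02 first, as in all pairs below). In STAT3-/- cells it read 6.34 and 6.38, and 6.16 and 6.81. Its arrays spanned the narrowest range of the genes detected on all 8 arrays, and all groups overlapped.

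Hoxa5 acts in the cervical and upper thoracic region and in lung development. It read 9.18 and 11.06 in untreated STAT3+/+ cells and 8.20 and 9.54 with OSM. In STAT3-/- cells it read 9.08 and 9.62, and 9.03 and 9.52. The highest and the lowest of the 8 arrays were both STAT3+/+, and the STAT3-/- arrays lay between them.

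Hoxd8, a trunk gene of the HoxD cluster, was measured by a pair of probe sets. Probe set 160460_at read 6.29 and 8.49 untreated and 6.34 and 8.84 with OSM in STAT3+/+ cells, and 6.59 and 8.13, then 6.89 and 8.59, in STAT3-/- cells. Probe set 93221_at read 6.36 and 8.60, then 6.88 and 8.54, in STAT3+/+ cells, and 7.05 and 7.59, then 7.61 and 8.59, in STAT3-/- cells. On both probe sets number 03 was above number 02 in every group. For 160460_at all number 03 arrays lay above all number 02 arrays, whereas for 93221_at the untreated STAT3-/- array of number 03 lay just below the OSM-treated STAT3-/- array of number 02.

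Hoxa10, which acts in the lumbar region and the uterus, and Hoxc9, a thoracic gene, stood near the detection level. Hoxa10 read 4.4 and 5.17, then 4.13 and 5.06, in STAT3+/+ cells, and 4.58 and 5.19, then 4.998 and 5.32, in STAT3-/- cells. It therefore passed 5 on the 4 arrays of number 03 only. Hoxc9 read 4.54 and 5.38, then 4.62 and 5.39, in STAT3+/+ cells, and 4.84 and 5.61, then 5.03 and 5.84, in STAT3-/- cells. It was at 5 or more on 5 arrays, and all 4 arrays of number 03 lay above all 4 of number 02. The Hoxc9 probe set 92891_f_at has the suffix that marks probes shared within a sequence family, so its signal may include related transcripts and is uncertain.

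**Figure D2:**
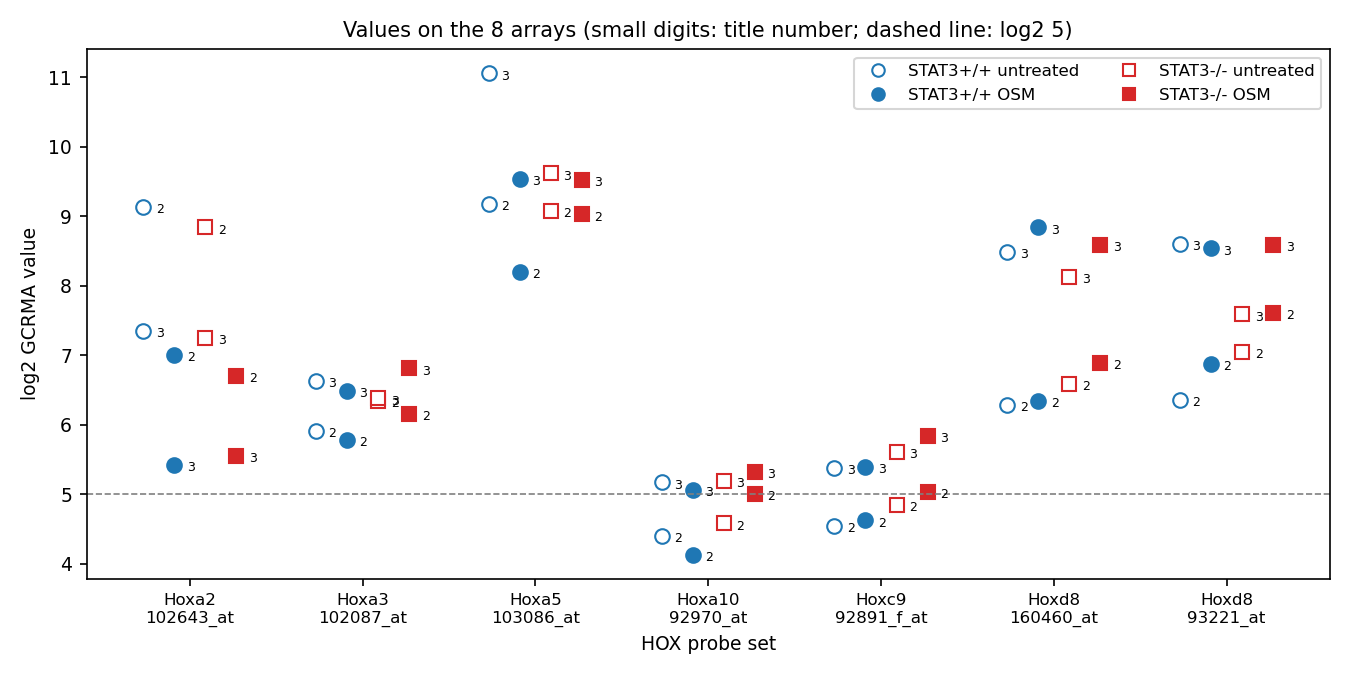
Log2 value on each of the 8 arrays for the 7 detected HOX probe sets, by line, treatment and title number. Hoxa2 is lower on the 4 OSM arrays (5.42 to 7.0) than on the 4 untreated arrays (7.25 to 9.14), and number 03 is above number 02 in every group for the other 6 probe sets.

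The effect of OSM was read within each title number, as the OSM array minus the untreated array of the same line and number. Hoxa2 was lower with OSM in all 4 such pairs, at -2.14 and -1.93 in STAT3+/+ cells and at -2.14 and -1.70 in STAT3-/- cells on the log2 scale. Among the 6756 probe sets tested, 10 (0.148%) had all 4 pairs at -1 or less, and Hoxa2 was 1 of them. The mean difference over both lines was -1.98 log2, which is 3.94-fold lower (n = 4 pairs). With the title number as a block in limma, so that each array is compared within its number, the standard error was 0.18, the 95% interval -2.43 to -1.52, and the adjusted p 0.0458. In that fit 8 of the 6756 probe sets passed (0.118% of those tested), and Hoxa2 was the only one of them that fell (0.0148%). The 7 that rose included Ereg, an epidermal growth factor receptor ligand, at 5.50 ± 0.30 (SE), Has2, a hyaluronan synthase, at 4.67 ± 0.27, and Fosl1, an AP-1 subunit, at 3.62 ± 0.24, all on the log2 scale.

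In limma without that block, the standard error of the Hoxa2 difference was 0.66 and the adjusted p was 1, and 0 of the 7 HOX probe sets and 0 of all 6756 (0%) passed, with 255 at an unadjusted p under 0.05. With the block, Hoxa2 also missed the threshold when any of the 8 arrays was left out, with adjusted p between 0.135 and 0.204 and differences between -2.10 and -1.85, and when all probe sets (0.0625) or only those at 7 or more (0.051) were tested. The other 5 of the 7 settings tried with the block on all arrays kept the call. Their limma adjusted p ran from 0.0332 (no intensity trend) to 0.0493 (robust variance estimates). The call was thus made only with pairing by number and all 8 arrays, while the direction was the same in all 4 pairs.

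The Hoxa2 difference with OSM had close values in the lines. It was -2.03 in STAT3+/+ cells, with a limma SE of 0.93 and 0.26 with the block, and -1.92 in STAT3-/- cells with the same errors. Leaving out 1 array moved these from -2.93 to -1.14 and from -2.72 to -1.12 without the block. The adjusted p was 1 in each line, and 0.182 and 0.159 with the block, where 1 (0.0148%) and 2 (0.0296%) of all probe sets passed. Without the block 0 passed in either line (0%), with 126 and 138 at an unadjusted p under 0.05. The difference of the OSM effects, STAT3-/- minus STAT3+/+, was 0.11, with a 95% interval of -0.79 to 1.02 and a limma adjusted p of 0.968 in the block fit. Without the block the interval was -3.10 to 3.32. No probe set passed that test in either fit (0%), with 29 at an unadjusted p under 0.05 without the block and 248 with it.

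Hoxa5 showed another pattern. It was lower with OSM in both STAT3+/+ pairs, at -0.98 and -1.51, while the STAT3-/- pairs were at -0.04 and -0.10. The mean in STAT3+/+ cells was -1.25 with a limma SE of 0.74 and an adjusted p of 1, and with the block the SE was 0.40 and the adjusted p 0.549, so it did not pass. Without the block, leaving out 1 array moved it from -2.18 to -0.31, but arrays of unlike number are then compared. In STAT3-/- cells it was -0.07 with an SE of 0.74. The difference between the lines, 1.18, had a 95% interval of -0.22 to 2.57 and a limma adjusted p of 0.913 in the block fit, and was not called. In the fit without the block, leaving out 1 array moved it from 0.24 to 2.11, with the same limit.

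The other HOX genes had smaller OSM differences, several of mixed sign. Hoxa3 was at -0.13 and -0.14 in STAT3+/+ pairs and at -0.18 and 0.42 in STAT3-/- pairs. Hoxc9 was above 0 in all 4 pairs, by 0.01 to 0.23. Hoxa10 was at -0.27 and -0.12 in STAT3+/+ pairs and at 0.42 and 0.13 in STAT3-/- pairs. The Hoxd8 probe set 160460_at was above 0 in all 4 pairs, by 0.04 to 0.45, while 93221_at was so in 3 of 4, with a range of -0.06 to 1.0. None of these passed the limma test with or without the block. In all, 2 of the 7 HOX probe sets were above 0 in all 4 pairs and 2 below (Hoxa2 and Hoxa5), beside 13.4% above and 15.7% below among all probe sets tested. Over the 7 probe sets the median OSM difference was 0.04, beside -0.02 over all probe sets tested, and ranged from -0.19 to 0.27 without 1 array (fit without the block). It was -0.14 in STAT3+/+ and 0.21 in STAT3-/- cells, beside -0.04 and 0.02. The difference of the OSM effects was above 0 for all 7, with a median of 0.26, beside 54.8% and 0.06 over all probe sets tested. Of the 33 HOX probe sets under the level, 0 moved the same way in all 4 pairs, as did 1.27% upward and 0.935% downward of all 5666 probe sets under it.

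**Figure D3:**
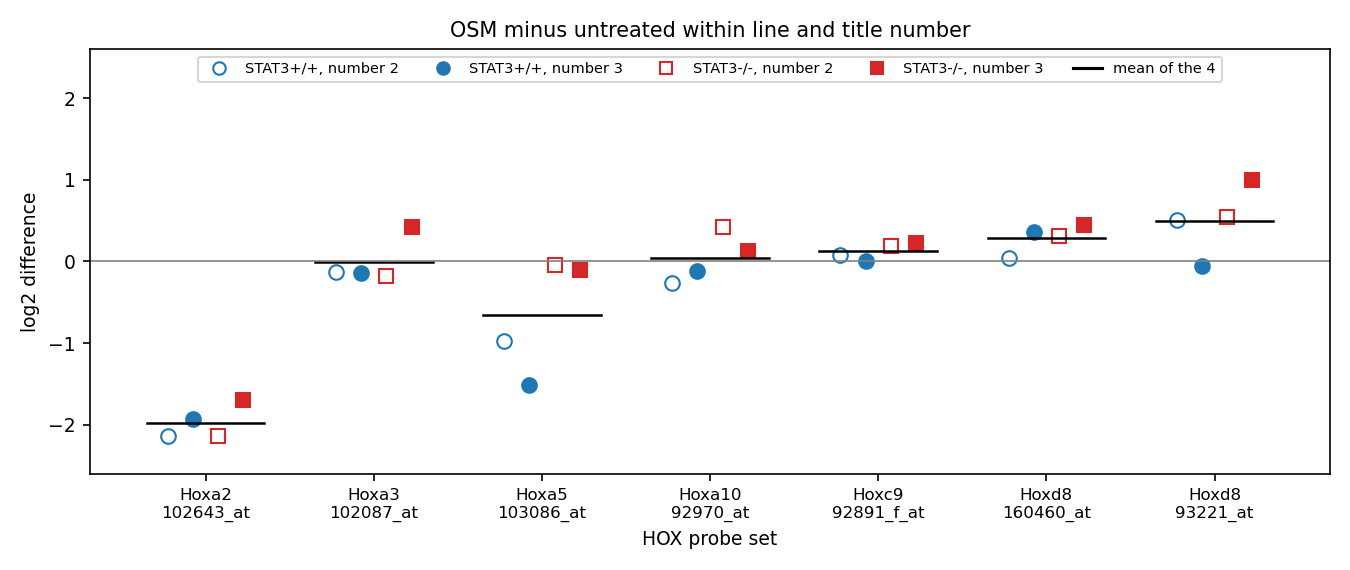
OSM minus untreated, in log2 units, within each line and title number for the 7 detected HOX probe sets, with bars at the mean of the 4 pairs. Hoxa2 lies between -2.14 and -1.70 in all 4 pairs, and Hoxa5 is lower in the STAT3+/+ pairs (-0.98 and -1.51) than in the STAT3-/- pairs (-0.04 and -0.10).

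The lines were compared in the same way, as STAT3-/- minus STAT3+/+ within treatment and number. Hoxa2, whose values differed most with OSM, was at -0.30 and -0.10 untreated and at -0.30 and 0.13 with OSM. Hoxc9 was higher in STAT3-/- cells in all 4 pairs, by 0.22 to 0.45, and Hoxa10 by 0.02 to 0.87. Hoxa3 was at 0.43 and -0.24 untreated and at 0.38 and 0.32 with OSM. Hoxa5 was at -0.11 and -1.44 untreated and at 0.83 and -0.02 with OSM, so its sign was mixed. The Hoxd8 probe sets were also mixed, with 160460_at between -0.35 and 0.55 and 93221_at between -1.01 and 0.73. A rise in all 4 pairs was seen for 9.98% of all probe sets tested and a fall, which no HOX probe set showed, for 14.1%. For all 7 probe sets the 4 arrays of one line overlapped the 4 of the other, and over all probe sets tested 1.78% were higher and 3.67% lower in STAT3-/- cells without overlap.

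Averaged over the treatments, 0 of 7 HOX probe sets passed the limma test, where 1 of all 6756 did (0.0148%), with 388 at an unadjusted p under 0.05. With the block 0 of 7 passed beside 29 of all (0.429%), with 1176 at an unadjusted p under 0.05. The block fit's 95% intervals were -0.60 to 0.31 for Hoxa2, -0.26 to 0.70 for Hoxa3, -0.88 to 0.52 for Hoxa5, -0.10 to 0.77 for Hoxa10, -0.03 to 0.71 for Hoxc9, -0.49 to 0.61 for Hoxd8 by 160460_at and -0.66 to 0.89 by 93221_at. All 7 intervals hold 0. Without the block they were wider, from -0.57 to 1.01 for Hoxa3 up to -1.99 to 2.11 for Hoxd8 by 160460_at, and all 7 reached beyond 1 log2 unit. The intervals therefore do not show that the lines have the same HOX levels. In untreated cells alone 0 of 7 passed beside 0 of all (0%), with 151 at an unadjusted p under 0.05 and 653 with the block, where also 0 of all passed. With OSM 0 of 7 passed beside 1 of all (0.0148%, with 243 at an unadjusted p under 0.05), and with the block 0 of 7 beside 7 of all (0.104%, with 814). The median line difference over the 7 was 0.12, beside -0.03 over all probe sets tested, and ranged from 0.04 to 0.53 without 1 array (fit without the block). It was -0.03 untreated (3 of 7 above 0) and 0.39 with OSM (6 of 7 above 0), where Hoxd8 counts by 2 probe sets. Over all probe sets tested the medians were -0.06 and 0, with 43.5% and 50% above 0. Among the 33 under the level, the 3 highest single readings relative to their other arrays were all on the untreated STAT3-/- array of number 02, with Hoxd10 at 3.39, Hoxc4 at 4.05 and Hoxd9 at 2.06. They stood 1.26, 0.36 and 0.37 above the next array. These readings were chosen for mention after their values were seen, and the share of all probe sets highest on that array was not computed. The Hoxd9 and Hoxd10 probe sets are annotated to the same sequence record.

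**Figure D4:**
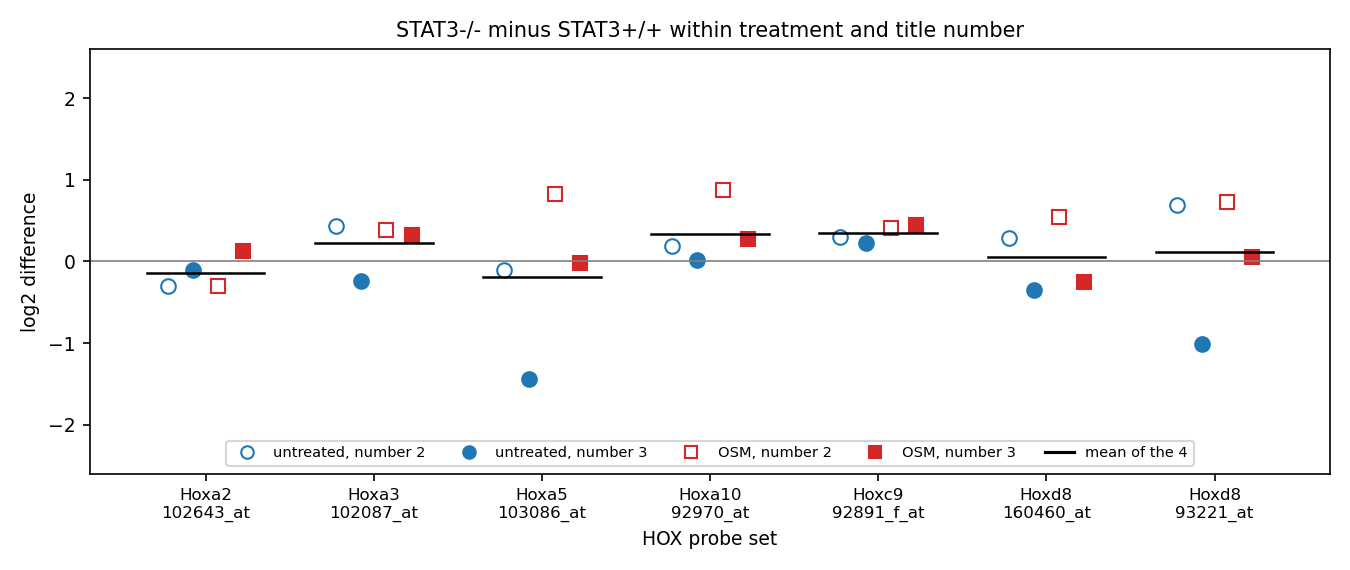
STAT3-/- minus STAT3+/+, in log2 units, within treatment and title number for the 7 detected HOX probe sets, with bars at the mean of the 4 pairs. Hoxc9 and Hoxa10 are above 0 in all 4 pairs (0.22 to 0.45 and 0.02 to 0.87), and the other 5 probe sets have pairs on both sides of 0.

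For all 7 HOX probe sets the mean difference between the title numbers was larger than that between the lines. The share of all probe sets for which this holds was not computed. In the block fit, 41.1% of all probe sets tested were called between the numbers and 0.429% between the lines averaged. Hoxd8 was higher on number 03 by 1.98 ± 0.22 log2 (limma SE) on 160460_at and by 1.35 ± 0.31 on 93221_at, with adjusted p of 0.00439 and 0.0216. Hoxa5 was higher by 1.06 ± 0.28 (limma adjusted p = 0.0311), Hoxc9 by 0.80 ± 0.15 (0.0124) and Hoxa10 by 0.66 ± 0.17 (0.0303). Hoxa2 went the other way, at -1.53 ± 0.18 with a limma adjusted p of 0.00482. Hoxa3, at 0.53 ± 0.19, did not pass with an adjusted p of 0.0756. In all, 5 of the 7 rose and 1 fell, where 23.4% of all probe sets tested rose and 17.7% fell, or 41.1% together. Hoxa10 was at log2 5 or more on number 03 arrays only. Hoxc9 was so on these and on the OSM-treated STAT3-/- array of number 02 (5.03). Their rise is therefore not independent of the level that let them into the test. What the number marks is not stated in the labels, so culture, RNA preparation and array handling cannot be told apart.

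The shifts had the same sign in every group, above 0 for 6 probe sets and below 0 for Hoxa2, beside 33.7% and 25.6% of all probe sets tested. The 6 include Hoxa10 and Hoxc9, to which the limit just given applies. For Hoxa2 number 03 minus number 02 was -1.79 untreated and -1.59 with OSM in STAT3+/+ cells, and -1.59 and -1.15 in STAT3-/- cells. For Hoxa5 number 03 was above by 1.87 and 1.34 in STAT3+/+ cells and by 0.54 and 0.49 in STAT3-/- cells. For Hoxd8 the 160460_at shift was 2.19 and 2.50 in STAT3+/+ cells and 1.55 and 1.70 in STAT3-/- cells. Whether the shift of Hoxa5 and Hoxd8 differs between the lines was not tested.

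Hoxa2 and the Hoxd8 probe set 160460_at were called when any of the 8 arrays was left out, with limma adjusted p of up to 0.0275 and 0.0256. They were the 2 HOX probe sets still called without any 1 of the 4 STAT3+/+ arrays, whether untreated or OSM and of either number. Without 1 of the STAT3-/- arrays, 4 to 6 were called. Leaving out either array of a group gave the same number difference, since the array that remains then adds nothing to it. The 8 fits therefore hold only 1 distinct estimate for each of the 4 groups, here and for the list genes below. The calls for Hoxa5 and Hoxa10 also depended on scaling. After a further quantile normalization Hoxa5 was at 0.94 (limma adjusted p = 0.05) and Hoxa10 at 0.41 (0.117), and after centring each array on its median they were at 0.80 (0.059) and 0.40 (0.129). With values under 5 set to 5, Hoxa10 was at 0.19 (0.167). A small upward shift on number 03 was also present among probe sets under the level, where 28 of 33 HOX probe sets (84.8%) and 77.6% of all 5666 were above 0 in all 4 groups, with median shifts of 0.24 and 0.29. Its part in the shifts of the detected HOX probe sets was not tested.

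**Figure D5:**
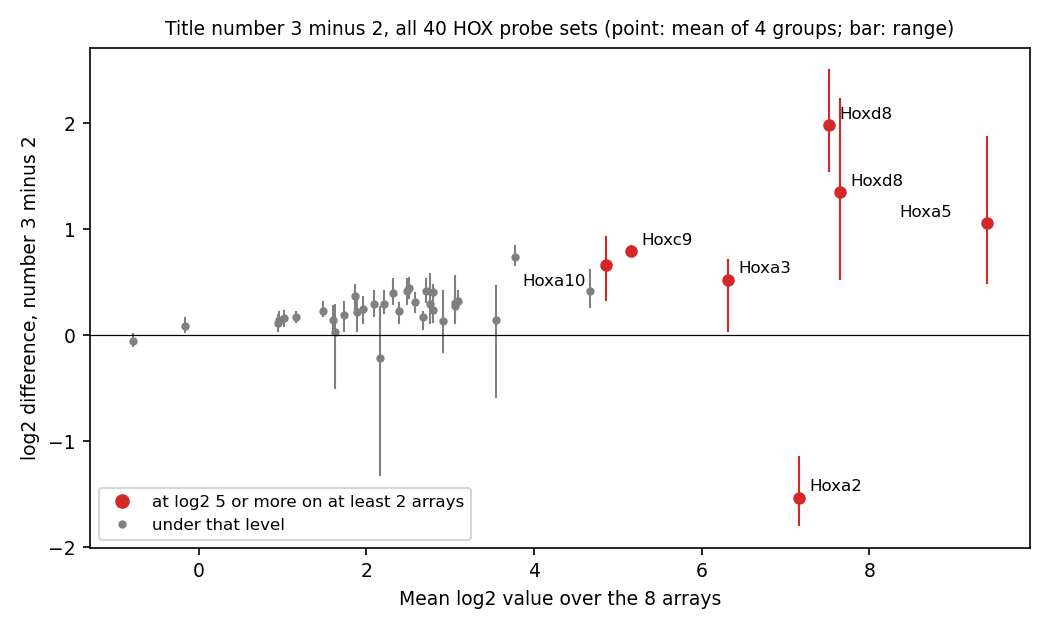
Difference between title numbers 03 and 02 (log2) against the mean log2 value over 8 arrays for all 40 HOX probe sets, where a point is the mean of the 4 groups and a bar their range. The undetected probe sets lie mostly just above 0, with a median of 0.24, while Hoxd8 (1.98 and 1.35) and Hoxa2 (-1.53) stand far from it.

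HOX proteins act with PBX and MEIS partners, and their clusters are held silent by Polycomb complexes and opened by trithorax factors, histone demethylases and retinoic acid receptors. A list of 43 such regulators and cofactors had 35 genes on the array, of which 23 were detected by 28 probe sets. None of the 28 passed the limma test in any line or OSM comparison, with or without the block. The smallest p for OSM was that of Pbx3, a HOX partner, at -0.92 ± 0.18 (limma SE, block fit) with an adjusted p of 0.154 on probe set 93615_at. Its other probe set, 93616_g_at, disagreed, at -0.12 ± 0.16. On the former the difference of the OSM effects between the lines was 1.16 (limma adjusted p = 0.913, block fit). For the lines it was that of Meis1, also a HOX partner, at 0.66 ± 0.18 with a limma adjusted p of 0.162, followed by the retinoic acid receptor Rara at -0.94 ± 0.26 with 0.17. The median of the 28 was -0.11 for OSM and -0.05 for the lines, beside -0.02 and -0.03 over all probe sets tested. By line it was -0.31 for OSM in STAT3+/+ cells (20 of 28 below 0) and 0.06 in STAT3-/- cells (13 of 28 below 0). Over all probe sets tested these medians were -0.04 and 0.02, with 43.8% and 52.2% above 0. For the lines the median of the 28 was -0.27 untreated (22 of 28 below 0) and 0.12 with OSM (10 of 28 below 0). Those of all probe sets tested were -0.06 and 0, with 43.5% and 50% above 0.

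Between title numbers, 6 of these 28 probe sets rose (21.4%) and 7 fell (25%), beside 23.4% and 17.7% of all probe sets tested, so the called share, 46.4%, was near the 41.1% of all. Without 1 array, 4 to 11 of the 13 were called, fewest (4) without either untreated STAT3+/+ array, 5 without either OSM-treated STAT3+/+ array and 6 without either untreated STAT3-/- array. Those of Kdm6a, Ezh1, Hnrnpa2b1 (93117_at) and Suz12 (103746_at) were called whichever array was left out, and those of Pbx2 and Rarg were called in none of these 8 fits. The histone demethylase Kdm6a rose by 1.83 ± 0.20 log2 (limma SE), Ezh1 by 1.15 ± 0.18, the PBX partner Pbx2 by 0.82 ± 0.22 and the RNA-binding Hnrnpa2b1 by 1.19 ± 0.15 and 0.94 ± 0.20 on a pair of probe sets. The Polycomb methyltransferase Ezh2 was at -1.10 ± 0.25, the Polycomb gene Pcgf2 at -0.69 ± 0.20, and Gmnn, a replication licensing inhibitor that also binds HOX proteins, at -1.72 ± 0.42. The retinoid receptors Rxra (-1.66), Rara (-0.88) and Rarg (-0.50) fell as well. The Rxra probe set had a median of 3.99 over the arrays, under the detection level, and the other Rxra probe set was not detected. Without 1 array, Rxra was called in 4 of the 8 fits and Rara in 2. The Polycomb subunit Suz12 had probe sets that disagreed, at -1.83 (103746_at) and 0.82. The former ranged from 3.81 to 6.68 with a median of 4.9, around the detection level. Its fall, like that of Rxra, may therefore not be independent of the level that let it into the test.

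A list of 58 other positional and limb patterning genes had 44 on the array and 15 detected. In the line comparison with the block, 2 of the 15 passed, beside 29 of all 6756 (0.429%). Pax3, a gene of neural crest and muscle precursors, was at -2.27 ± 0.21 log2 (limma adjusted p = 0.0315), and Irx3, an Iroquois patterning gene, was at 3.16 ± 0.38 (0.0488). Without the block their limma adjusted p was 0.303 and 0.212, so neither call held. With the block, neither was called when any 1 of the 8 arrays was left out, with limma adjusted p of 0.0964 to 0.153 for Pax3 and 0.0918 to 0.175 for Irx3, and differences of -2.43 to -2.12 and 2.77 to 3.56. Twist1, at 1.42, and Dlx2, at -1.43, did not pass, with limma adjusted p of 0.0839 and 0.135 in the block fit. None of the 15 passed for OSM in either fit. Evx1 and Evx2, homeobox genes that lie next to the HoxA and HoxD clusters, were not detected. Between title numbers 5 of the 15 were called (33.3%), beside 41.1% of all probe sets tested. Shox2 (2.47 ± 0.52) and Twist1 (1.10 ± 0.23) rose and Twist2 (-5.25 ± 0.58), Pax3 (-0.77 ± 0.21) and Prrx2 (-0.74 ± 0.14) fell, on the log2 scale. The Twist2 values ranged from 3.07 to 10.04, across the detection level, so its fall may not be independent of that level. Twist2 was called whichever array was left out and Pax3 in none of these 8 fits, and 1 to 4 of the 5 were called without 1 array, fewest (1) without either untreated STAT3+/+ array, 2 without either OSM-treated STAT3+/+ array and 3 without either untreated STAT3-/- array.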

How the data were processed

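Biotin-labelled RNA of 8 samples was hybridised to Affymetrix arrays, per the labels' protocols. The deposited values are log2 expression per probe set made by the authors with affy and GCRMA, per the submitters' processing notes, and the sources used here give no versions. GCRMA estimates background from probe sequence and pulls dim probe sets to low values, which can enlarge differences of transcripts that are dim in 1 group. The table's 12488 probe sets include 66 controls, which were left out. The platform annotation gave 1 symbol to 10833, several to 396 and none to 1193, and 10817 gene IDs matched the RefSeq table of GRCm38.p6, which was used for names and gene order.

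Groups and numbers come from the sample titles. Differences were tested two-sided with limma 3.58.1 in R 4.3.3 (lmFit, then eBayes with a mean-variance trend) on the 6756 probe sets at log2 5 or more on at least 2 arrays, fitted on all 8 arrays with 4 group means. Benjamini-Hochberg adjustment ran over all of them, with a threshold of 0.05. The other fit had the number as a block. Same-numbered arrays deviated together, since the number 03 minus 02 differences of the 6 pairs of groups correlated at 0.59 to 0.91, so the numbers were treated as pairing the arrays on the evidence of the data, and values with the block stand beside results whose call they change. The title number itself was tested as a term beside the group means.

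The HOX probe sets, the gene lists (HOX regulators and cofactors, other positional and limb patterning genes, and markers of fibroblasts, epithelium, leukocytes, endothelium, neural cells, muscle, and cartilage and bone) and the tests were chosen with earlier results of these data known. Named genes were all detected HOX probe sets, list members that passed a comparison's test and, where none passed, up to 4 of a list with the smallest p. Promoter sequences are those of RefSeq (GRCm38.p6).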

Additional observations from a re-analysis of the deposited data

Results flagged for a closer look

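Hoxa10, by probe set 92970_at, moved in opposite directions with OSM in the lines. Both STAT3+/+ pairs were below 0, at -0.27 and -0.12, and both STAT3-/- pairs above it, at 0.42 and 0.13. The difference of the OSM effects was 0.47 log2 with a limma SE of 0.73 and an adjusted p of 1, and with the title number as a block the SE was 0.35 and the adjusted p 0.913, so the test of the difference did not pass. The values lie between 4.13 and 5.32, close to the detection level. In the fit without the block, leaving out 1 array at a time moved the difference from 0 to 0.93.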

How the results depend on the processing

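The 51 results above were recomputed under other settings in 1058 ways, and 931 were classed as the same. Of the others 52 changed sign, 43 moved, 25 lost a call and the rest gained one. For the lines and OSM the reference was the fit without the block, where no HOX probe set was called. A block fit in which Hoxa2 lost its OSM call was therefore classed as the same, and the 931 do not measure robustness of that call. For single probe sets this meant the same direction and side of the threshold, and for counts a value within 1.5 times. For medians over the HOX probe sets, and for differences within a single title number, it meant a move smaller than the standard deviation within groups, whatever the sign. Fits that combine the block with another choice, the settings tried on each title number difference, and the fits without 1 array for called list genes, were chosen after seeing the data. A further 28 log2 differences of single probe sets within 1 line or treatment were recomputed in 514 ways, of which 0 passed the threshold and 49 changed sign.

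With the replicate block the count of all probe sets called was 1 for OSM in STAT3+/+ cells, 2 for OSM in STAT3-/- cells, 7 for the lines with OSM, 29 for the lines averaged and 8 for OSM averaged, where 1 HOX probe set (Hoxa2) was called. It changed no other HOX call. With values under 5 set to 5, the count was 1 for OSM in STAT3-/- cells, 1 for OSM averaged and 0 for the lines with OSM. For the lines with OSM it was also 0 with no intensity trend, robust variance estimates, a further quantile normalization, median centring or only the groups compared. With no filter it was 3 for the lines averaged and 1 for OSM averaged, and for OSM averaged it was 1 after quantile normalization and 2 after median centring. With no filter 35 of 40 HOX probe sets (87.5%) were called between title numbers, 34 of them upward, beside 58% of all 12422 probe sets (46.9% upward). These sets are unlike, since 33 of the 40 HOX probe sets lay under the level, beside 5666 of all 12422. Among those under it, 84.8% of the HOX probe sets and 77.6% of all were above 0 in all 4 groups. At a level of 7 in place of 5, 4 HOX probe sets were detected. Quantile normalization turned the difference of the OSM effects on Hoxa2 to -0.08.

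Leaving out 1 array at a time changed the sign of small differences. For single probe sets, the lines averaged and OSM averaged were fitted so with and without the block. The title number calls had the number as a term, and all other ranges here, medians included, are without the block. Without it, leaving out 1 array leaves arrays of unlike number compared, so those ranges also carry the shift between numbers. For the lines averaged the ranges were -0.59 to 0.3 for Hoxa2, -0.65 to 0.28 for Hoxa5, and -0.57 to 0.69 and -0.44 to 0.67 for the Hoxd8 probe sets. For OSM averaged they were -0.19 to 0.27 for Hoxa10, -0.19 to 0.17 for Hoxa3, -0.08 to 0.34 for Hoxc9, and -0.34 to 0.92 and -0.06 to 1.06 for Hoxd8. OSM in STAT3-/- cells ranged from -0.34 to 0.2 for Hoxa5, and the difference of OSM effects from -0.78 to 1.01 for Hoxa2. The median over the HOX probe sets ranged from -0.29 to 0.49 for the lines untreated, -0.01 to 1.03 with OSM, -0.89 to 0.27 for OSM in STAT3+/+ cells and -0.1 to 0.93 for the difference of OSM effects. The count of all called was 0 to 1 for the lines averaged and for the lines with OSM, and 2 to 6 HOX probe sets were called between title numbers.

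With 2 arrays a group, the errors rest on few arrays, and without the block the 95% interval of the Hoxa2 difference with OSM ran from -3.58 to -0.37. Hoxa10 and Hoxc9 lie near the detection level, and the probe sets under it carry little information on differences.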
